A study of Homo sapiens with 6 samples.

Results

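The mitochondrial ribosome is built from rRNAs that mitochondrial DNA encodes and from proteins that nuclear genes encode. The genes of these proteins carry the symbols MRPL for the large subunit and MRPS for the small subunit. Members were taken as the protein-coding genes whose symbol is MRPL or MRPS, a number and at most 1 letter. This gave 78 of the 60651 gene identifiers, 49 of the large and 29 of the small subunit, and all 78 had enough counts to be tested. They lie on 21 chromosomes, with 8 each on chromosomes 1, 2 and 17 and 7 on chromosome 11.

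The study measured RNA in SK-N-AS, an established human neuroblastoma line without MYCN amplification, in single clones that carry a tetracycline-inducible MYCN gene and a tetracycline repressor under selection with G418-BC and Blasticidin. The 3 control libraries are labelled ETOH and the 3 MYCN-induced libraries are labelled Tet, since they received tetracycline, and both were taken after 120 h. Total RNA was depleted of rRNA before sequencing. The paper calls the replicates biologically independent experiments. MYCN itself stood at 30.3, 35.5 and 32.4 CPM (normalised counts, scaled to a common library size) in control and at 211, 221 and 199 CPM in the induced libraries.

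Mitochondrial ribosomes translate the few proteins that mitochondrial DNA encodes, all of them parts of the respiratory chain and the ATP synthase. The small subunit holds the decoding centre, where the codon is read. The large subunit holds the peptidyl transferase centre and the exit tunnel. MYCN belongs to the MYC family of transcription factors, which are known to raise genes of ribosome production. Tetracycline is an antibiotic that binds the small subunit of bacterial ribosomes and is also known to block translation in mitochondria. Only the induced cells received it, so effects of MYCN and of tetracycline on these genes cannot be told apart here.

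The libraries held between 64500589 and 102249336 counted read pairs, and the members took 0.298% to 0.339% of them. The biological coefficient of variation over all genes was 0.153. MRPL23 was the member with the fewest counts, 15.5 to 438.5 in a library. MYCN-induced replicate 3 stood apart on the first principal component, at 69.1, while induced replicates 1 and 2 were at 14.4 and 13.1 and the controls between -40.3 and -25.9. Of 8 adrenergic neuroblastoma markers 7 were above 1 TPM (CPM divided by exon length and rescaled) in control, summing to 454 to 554 TPM in control and 424 to 564 TPM in induced libraries. Of 5 mesenchymal markers 3 were above 1 TPM (126 to 144 TPM in control, 143 to 172 TPM induced) and CD44 was at 0 in every library. Of 7 markers of other cell types 1 was above 1 TPM, and their sum was 3.63 to 4.86 TPM in all libraries. The log2 fold change was above 0 for 3 of 8 adrenergic markers (PHOX2A, HAND2 and GATA3) and for 3 of the 4 mesenchymal markers tested (PRRX1 0.72, VIM 0.30 and YAP1 0.15). CHGA, an adrenergic marker, and FN1, a mesenchymal one, passed the test and fell (adjusted p = 0.049 and 0.033, edgeR). Without MYCN-induced replicate 3 those 3 mesenchymal markers were called higher, while 1 mesenchymal and 3 adrenergic markers were called lower. DESeq2 called 1 mesenchymal marker higher and 1 lower, and 0 adrenergic markers higher and 3 lower. The part of these marker changes in the results below was not tested.

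Levels of different members were compared per exon length, as TPM. In control cells the median was 20.6 TPM for the large and 18.1 TPM for the small subunit, and the quartiles over all members were 11.7 and 30.5 TPM. The order ran over 113-fold from the highest to the lowest member. At the top stood MRPL51, a mitochondria-specific protein of the large subunit, at 141 ± 8.32 TPM (SD, n = 3), and MRPS21, the counterpart of bacterial S21, at 138 ± 4.74 TPM. These neighbours differed by less than their spread. MRPL24, which lines the exit tunnel, followed at 108 ± 11.1 TPM and MRPL33 at 65.2 ± 4.26 TPM. Within the small subunit MRPS16 at 43.1 ± 0.65 TPM and MRPS35 at 42.2 ± 1.86 TPM came after MRPS21, and this pair again differed by less than its spread.

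At the other end stood MRPL23 at 1.25 ± 1.03 TPM, MRPL46 at 2.71 ± 0.12 TPM and MRPL48 at 3.97 ± 0.11 TPM, the last 2 being proteins of the central protuberance. Of the small subunit, MRPS12 was lowest at 4.45 ± 1.07 TPM, followed by MRPS11 at 6.48 ± 0.39 TPM and MRPS28 at 6.77 ± 0.11 TPM. MRPS12 is the counterpart of bacterial S12, which sits in the decoding centre. The length behind TPM counts every annotated exon base. MRPL42, with 16368 exon bases, had the most CPM of all members in control (182, 173 and 167) and 17.5 ± 1.63 TPM.

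**Figure D1:**
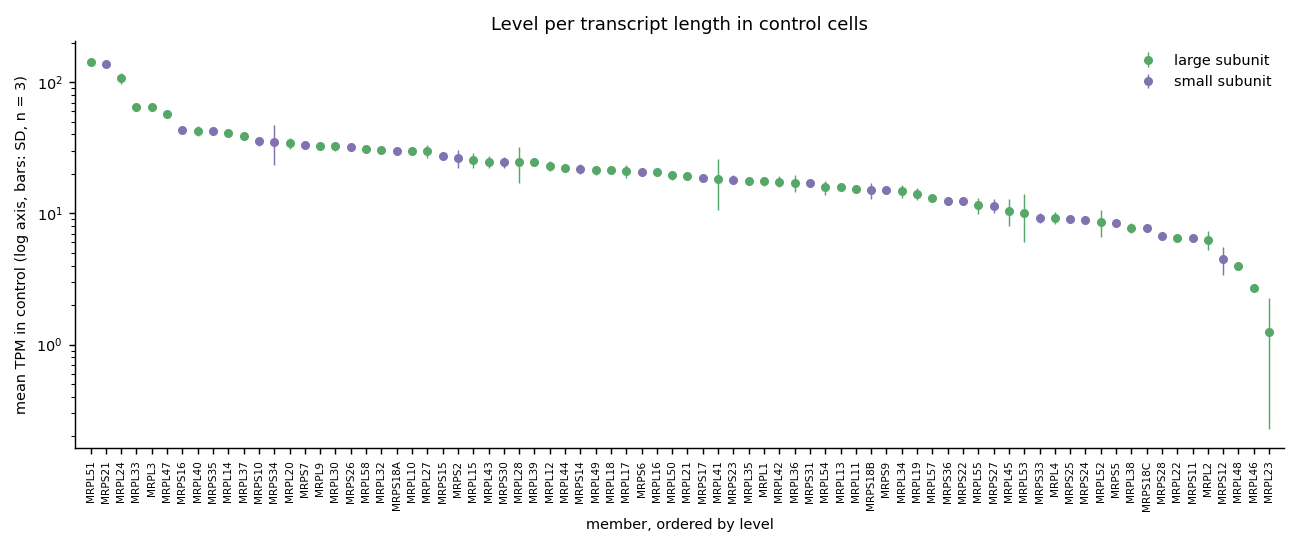
Mean TPM of each of the 78 members in the 3 control libraries, on a log axis and in descending order, with SD as bars. Green points are the large and purple points the small subunit. MRPL51, MRPS21 and MRPL24 stand above the rest, MRPL23 is lowest with the widest bar for its level.

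Several members share exon bases with other genes. No exon base was shared for 37 members, while 28 shared over 10% and 3 over 50% of their exon bases, namely MRPL53 (99.4%), MRPL12 (69.5%) and MRPS18A (50.9%). Read pairs on such bases were divided equally between the genes, and the file header names no strand option. The values of members with shared bases are thus uncertain, most of all for these 3. Among the others were MRPS28 (35.8%), MRPS34 (31.2%), MRPL33 (21.1%), MRPS14 (14.9%), MRPL34 (14.6%), MRPS16 (14.1%), MRPS22 (13.9%) and MRPL46 (11.3%). MRPL51 shares 27.6% of its exon bases with NCAPD2 on the opposite strand. Named pseudogenes exist for 36 members, and their 79 copies held 0.703% of the members' counts. MRPS31 was the member most exposed to this, since its 4 pseudogenes held 65.4% as many counts as the gene.

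The comparison of induced with control cells asked how the mRNAs of the mitochondrial ribosome stood after MYCN induction. Most of them were slightly higher, and 1 passed the test. The log2 fold change was above 0 for 43 of 49 members of the large subunit and for 24 of 29 of the small subunit. Its median was 0.16 in the large and 0.13 in the small subunit, beside -0.0004 over all 29086 genes tested and 0.026 over the protein-coding ones. An adjusted p under 0.05 (edgeR's quasi-likelihood test, Benjamini-Hochberg over all genes) was reached by MRPS15, which rose. That is 1 of 29 small and 0 of 49 large subunit members, where 1.02% of all genes tested were called higher, so the share of members called was near the background. No member was called lower, where 2.38% of all genes were. At an unadjusted p under 0.05, 14 large (28.6%) and 6 small (20.7%) subunit members were higher. This compares with 8.13% of all genes and 11.4% of the protein-coding ones. All members are protein-coding, and among protein-coding genes the shares higher were larger than among all genes. Without control replicate 2 these 20 members became 10 (12.8%), against 4.74% of all genes. In the other direction, 0 large and 1 small subunit member had an unadjusted p under 0.05, against 10.6% of all genes.

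DESeq2, the tool of the study, called 4 large (8.16%) and 4 small (13.8%) subunit members higher and 0 lower. Over all genes it called 3.11% higher and 4.12% lower, and over the protein-coding ones 4.68% higher. Without MYCN-induced replicate 3 edgeR called 5 large and 2 small subunit members higher. It then called 3.68% of all genes higher and 5.91% of the protein-coding ones. With the replicate number as a block, 0 large and 2 small subunit members were called higher. The shares were 0.911% of all genes and 1.42% of the protein-coding ones.

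**Figure D2:**
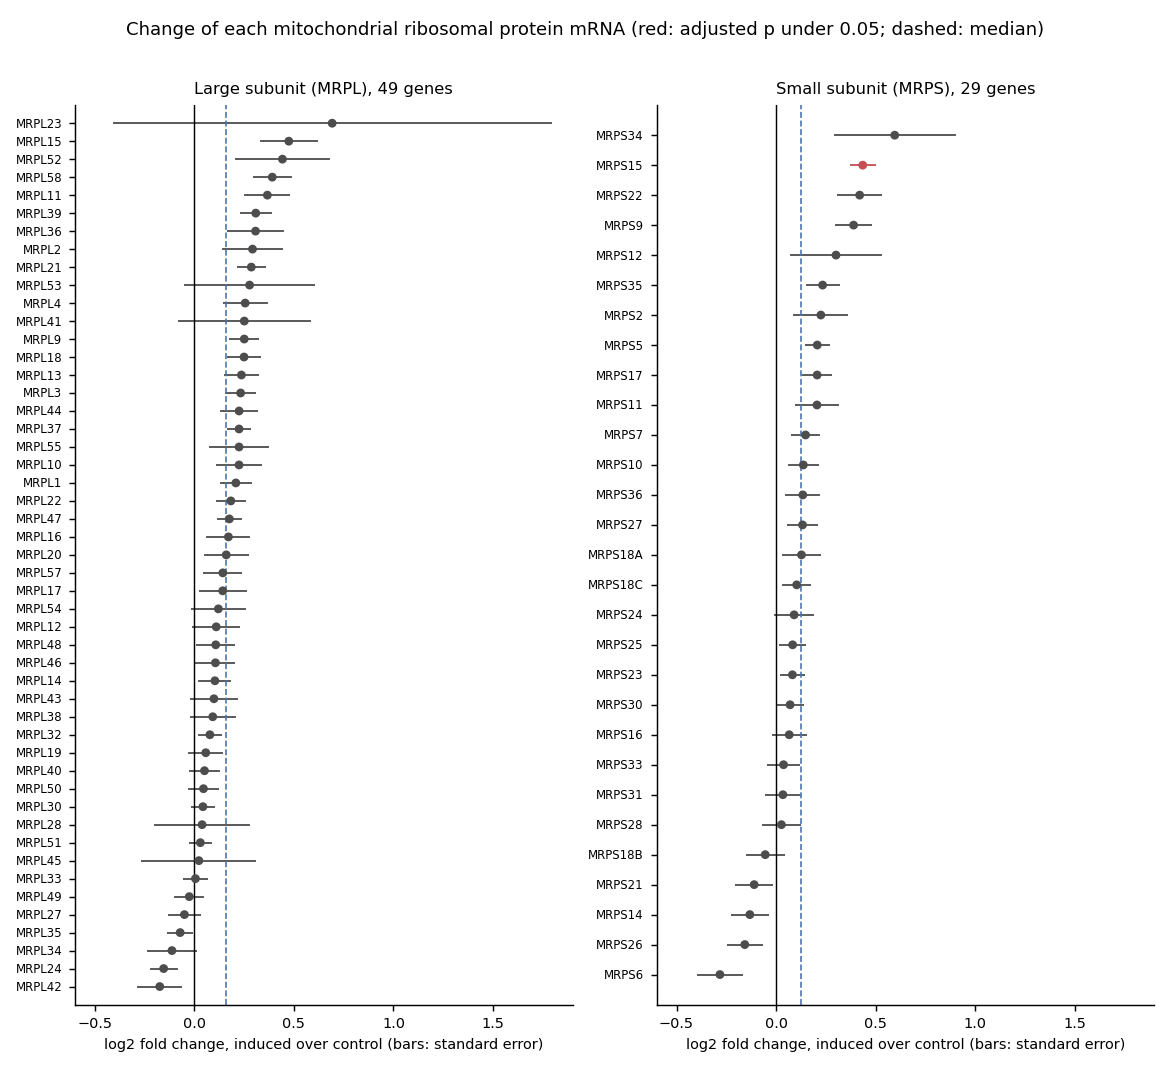
Log2 fold change of each member, induced over control, in descending order, for the large subunit on the left and the small subunit on the right. Points are estimates from edgeR, bars are 1 standard error, the dashed line is the median of the subunit (0.16 and 0.13), and MRPS15 in red is the member with an adjusted p under 0.05. Most points lie slightly right of 0 and few reach 0.5.

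Sizes were small throughout. Just 2 members had a log2 fold change above 0.5, MRPL23 and MRPS34, and both had wide errors. No member fell below -0.5. The median standard error over the members was 0.095, and 8 members had one over 0.2.

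The 3 induced libraries lay above all 3 controls for 16 large (32.7%) and 12 small (41.4%) subunit members, where this held for 11.5% of all genes tested. They lay below all 3 controls for 2 large and 2 small subunit members, where 14.7% of all genes did. For the remaining 31 large and 15 small subunit members the groups overlapped. Taken one at a time, induced replicate 1 was above every control for 46 of the 78 members, replicate 2 for 49 and replicate 3 for 50. Over all genes the shares in these 3 libraries were 31.2%, 32.1% and 33.6%, and over the protein-coding ones 34.4%, 37.6% and 40.9%. The excess of members above the controls was thus seen in each induced library in these CPM. For induced replicate 3 the level depended on the scaling. Scaled by library size only, its 78 members summed to 2979 CPM, below the controls (2986, 3050 and 3085 CPM). Under upper-quartile normalization they summed to 3085 CPM, above the controls (3051, 3025 and 3033 CPM).

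**Figure D3:**
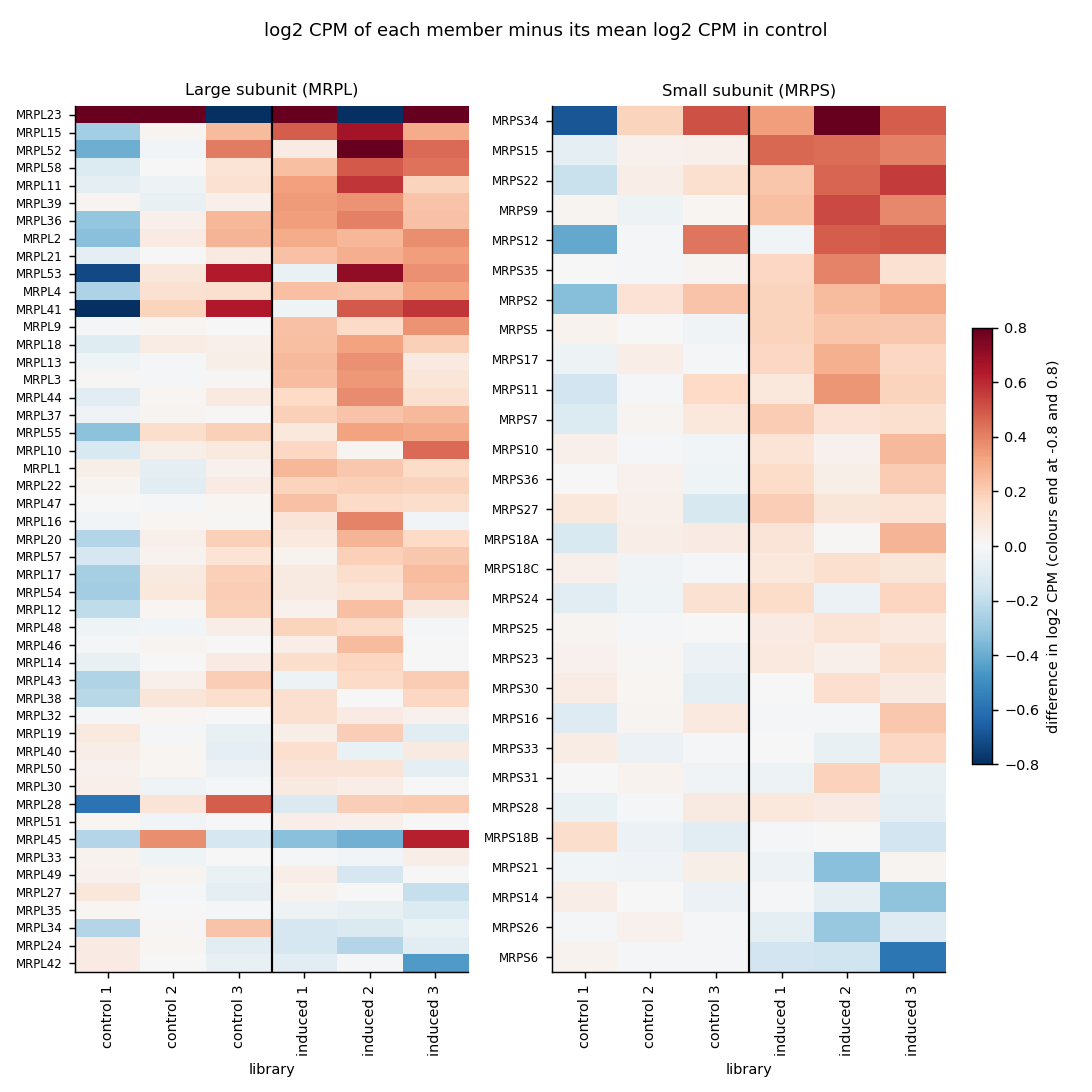
Each row is a member and each column a library, and the colour is the log2 CPM minus the mean log2 CPM of the 3 controls, from blue (lower) to red (higher), with colours ending at -0.8 and 0.8. The columns right of the black line are the induced libraries. Control 1 holds most of the blue among the upper rows, and MRPL23 at the top is low in control 3 and induced 2.

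MRPS15 (ENSG00000116898.12, chromosome 1 of GRCh38, 36455718 to 36464384, minus strand) is the counterpart of bacterial S15, a protein that binds the rRNA of the small subunit early in its assembly. It stood at 45.7, 49.2 and 49.6 CPM in control and at 66.1, 65.6 and 63.6 CPM in induced cells. The groups were far apart and each was narrow. Its level rose 1.35-fold, with a log2 fold change of 0.44 ± 0.066 (SE, the standard error, and adjusted p = 0.0171, edgeR). It shares no exon base with another gene. Leaving out 1 control at a time or MYCN-induced replicate 1 left log2 fold changes of 0.39 to 0.45 and adjusted p-values of 0.072 to 0.116 (edgeR). In the other alternatives, DESeq2 among them, it stayed under 0.05.

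Promoter sequences, from 250 bases before to 50 bases after each gene's start, came from a set of RefSeq promoters (GRCh38.p14). This set held 69 of the 78 members. Those outside it are MRPL2, MRPL10, MRPL13, MRPL15, MRPL21, MRPL23, MRPL35, MRPS28 and MRPS36. Absence from the set does not mean absence from RefSeq. RefSeq starts can differ from the starts of the genes as counted. The window of MRPL36 below lies inside the gene as counted (chromosome 5, 1798385 to 1801366). The sequence of MRPS15 is shown because it is the member past the test. MRPS9, with the second smallest p-value, is shown beside it. MRPL58 and MRPL39, among those that follow, show the ETS motif that many members hold. MRPL36 shows the E-box, the motif that MYC proteins are known to bind. It was picked for the highest log2 fold change of the members with an E-box (0.31). The others with an E-box ran from -0.03 (MRPL49) to 0.22 (MRPL37). Capitals mark CACGTG (the E-box, its own reverse complement) and CCGGAA or its reverse complement TTCCGG (the core of ETS factor sites). The windows are chr1:36464335-36464634 (minus strand), chr2:105037819-105038118 (plus strand), chr17:75012420-75012719 (plus strand), chr21:25607432-25607731 (minus strand) and chr5:1799788-1800087 (minus strand), each written 5′ to 3′ on the gene's strand.
MRPS15: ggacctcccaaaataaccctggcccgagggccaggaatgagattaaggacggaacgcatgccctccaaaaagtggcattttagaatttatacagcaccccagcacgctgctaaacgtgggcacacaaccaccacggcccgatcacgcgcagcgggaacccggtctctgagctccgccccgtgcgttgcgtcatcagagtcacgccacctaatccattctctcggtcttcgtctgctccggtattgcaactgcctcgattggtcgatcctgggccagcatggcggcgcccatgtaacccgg
MRPS9: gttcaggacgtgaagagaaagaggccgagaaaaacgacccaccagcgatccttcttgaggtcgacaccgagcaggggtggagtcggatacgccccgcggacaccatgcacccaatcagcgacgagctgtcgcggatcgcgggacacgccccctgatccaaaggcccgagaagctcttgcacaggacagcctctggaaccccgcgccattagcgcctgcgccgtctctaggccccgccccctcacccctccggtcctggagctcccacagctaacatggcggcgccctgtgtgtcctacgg
MRPL58: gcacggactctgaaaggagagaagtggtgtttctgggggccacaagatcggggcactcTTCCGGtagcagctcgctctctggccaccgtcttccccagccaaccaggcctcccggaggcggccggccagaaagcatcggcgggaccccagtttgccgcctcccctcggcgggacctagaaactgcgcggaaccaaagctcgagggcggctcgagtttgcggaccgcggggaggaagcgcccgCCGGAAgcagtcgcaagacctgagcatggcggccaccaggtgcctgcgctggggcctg
MRPL39: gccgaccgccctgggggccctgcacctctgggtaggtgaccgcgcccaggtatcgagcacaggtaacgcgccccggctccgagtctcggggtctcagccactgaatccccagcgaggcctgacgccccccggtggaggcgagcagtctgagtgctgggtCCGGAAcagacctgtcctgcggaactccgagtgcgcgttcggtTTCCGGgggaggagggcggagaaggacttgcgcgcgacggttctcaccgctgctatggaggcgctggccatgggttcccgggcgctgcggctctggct
MRPL36: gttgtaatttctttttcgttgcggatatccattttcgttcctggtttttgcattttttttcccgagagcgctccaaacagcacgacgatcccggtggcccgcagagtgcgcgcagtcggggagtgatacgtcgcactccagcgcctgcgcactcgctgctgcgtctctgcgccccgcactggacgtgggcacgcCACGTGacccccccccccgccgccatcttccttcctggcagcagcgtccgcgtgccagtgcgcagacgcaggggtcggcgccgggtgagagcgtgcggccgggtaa

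The windows of MRPS15 and MRPS9 held neither motif. CACGTG occurred in 6 of the 69 member promoters (8.70%), beside 7.43% of all 27305 promoters of this length and 9.66% of those of the tested protein-coding genes. The 6 members were MRPL22, MRPL36, MRPL37, MRPL45, MRPL49 and MRPS18C. CCGGAA or TTCCGG occurred in 39 of 69 (56.5%), beside 17.6% of all promoters and 27.4% of those of the tested protein-coding genes. The median log2 fold change was 0.14 for the 6 members with CACGTG and 0.13 for the 63 without. It was 0.11 for the 39 with the ETS letters and 0.17 for the 30 without.

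Other small subunit members with high fold changes were less even between libraries. MRPS9, the counterpart of bacterial S9, whose tail reaches toward the tRNA, stood at 16.9, 16.2 and 16.8 CPM in control and at 19.6, 24.0 and 21.8 CPM in induced cells. The groups did not overlap, and the log2 fold change was 0.39 ± 0.095 (SE, adjusted p = 0.073, edgeR). It shares 20.3% of its exon bases with MRPS9-AS1, a noncoding gene on the opposite strand. MRPS22, a mitochondria-specific protein, stood at 35.7, 41.9 and 44.1 CPM in control and at 47.2, 55.9 and 59.7 CPM in induced cells. Its groups did not overlap but both were wide, with a log2 fold change of 0.42 ± 0.11 (SE, adjusted p = 0.097, edgeR).

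MRPS34, a mitochondria-specific protein needed for a stable small subunit, had the highest fold change of the small subunit and 1 of the widest errors. It stood at 14.0, 25.4 and 32.0 CPM in control and at 28.3, 48.1 and 31.4 CPM in induced cells. Control 3 lay above 2 of the induced libraries, and the log2 fold change of 0.60 had a standard error of 0.31 (adjusted p = 0.352, edgeR). MRPS12 overlapped as well, with 3.51, 4.62 and 6.27 CPM in the 3 controls and 4.59, 6.54 and 6.59 CPM in the 3 induced libraries.

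At the lower end of the small subunit stood MRPS6, the counterpart of bacterial S6. It had 54.9, 53.7 and 53.3 CPM in control and 48.6, 48.4 and 36.2 CPM in induced cells. All induced libraries were below all controls, with induced replicate 3 farthest down, and the log2 fold change was -0.28 ± 0.11 (SE, adjusted p = 0.241, edgeR). MRPS26 was similar in order, at 19.5, 20.1 and 19.5 CPM against 18.7, 15.99 and 18.3 CPM (log2 fold change -0.16). MRPS14 (-0.13), MRPS21 (-0.11) and MRPS18B (-0.05) had log2 fold changes below 0 with overlapping groups. In MRPS21, with 124, 124 and 130 CPM in the 3 controls and 123, 100 and 128 CPM in the 3 induced libraries, the difference lay in induced replicate 2.

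The symbols do not match the ribosome throughout. MRPS30 and MRPS18A carry small subunit symbols while their proteins are known from the large subunit, and MRPS36 is known as a part of the 2-oxoglutarate dehydrogenase complex. MRPS30 stood at 96.3, 93.7 and 87.8 CPM in the controls and at 92.7, 102 and 97.4 CPM in the induced libraries. MRPS36 had 11.8, 12.1 and 11.5 CPM and then 13.0, 12.2 and 13.6 CPM, with groups that nearly met. With MRPS30 and MRPS18A counted in the large subunit its median log2 fold change was 0.14.

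**Figure D4:**
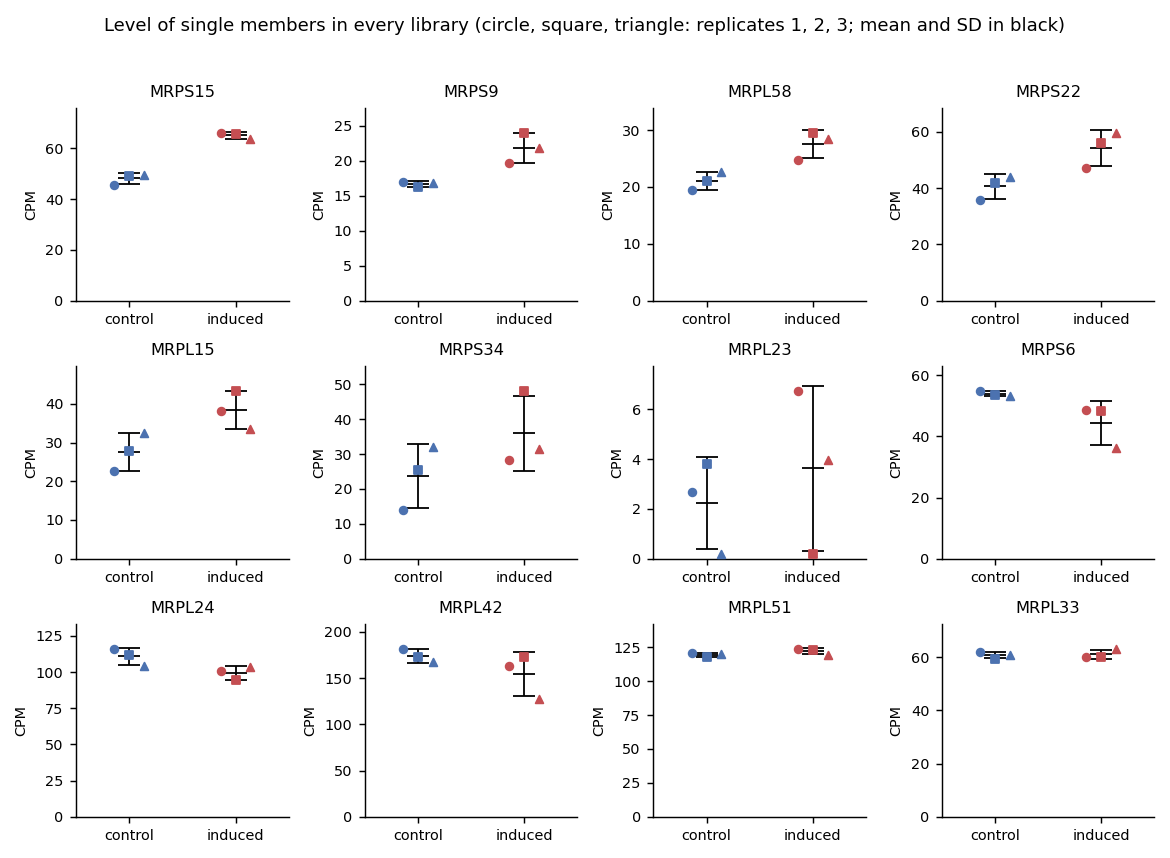
CPM of 12 members in each library, controls in blue and induced libraries in red, with circles, squares and triangles for replicates 1, 2 and 3 and the mean and SD in black. Each axis starts at 0 and has its own scale. MRPS15 shows separate and narrow groups, MRPL23 has values near 0 in 1 library of each group, and MRPL51 and MRPL33 are nearly level.

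In the large subunit no member passed the test, and the smallest adjusted p was that of MRPL58. This protein, also known as ICT1, frees the nascent chain from stalled mitochondrial ribosomes and is also built into the central protuberance. MRPL58 stood at 19.4, 21.0 and 22.6 CPM in control and at 24.8, 29.5 and 28.4 CPM in induced cells. Its groups did not overlap, and the log2 fold change was 0.39 ± 0.098 (SE, adjusted p = 0.080, edgeR; 0.0175 with DESeq2). MRPL15, the counterpart of bacterial L15, went from 22.6, 27.7 and 32.5 CPM to 38.2, 43.4 and 33.6 CPM, a log2 fold change of 0.47 ± 0.15 (SE, adjusted p = 0.134, edgeR). Its highest control and its lowest induced library nearly met. MRPL11, of the base of the stalk, stood at 22.4, 23.0 and 25.7 CPM and at 29.8, 35.2 and 26.7 CPM, with a log2 fold change of 0.37 (adjusted p = 0.139, edgeR).

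Members with smaller fold changes came closer to the threshold where their replicates were tight. At an adjusted p under 0.1 (edgeR) there were 7 members, where 2.43% of all genes were called higher. Beside MRPS15, MRPS9, MRPS22 and MRPL58 these were MRPL21 (log2 fold change 0.29), MRPL39 (0.31) and MRPL37 (0.22), which are named here after their values were seen. MRPL37, a mitochondria-specific protein, stood at 58.8, 60.9 and 60.2 CPM in control and at 68.5, 70.1 and 71.6 CPM in induced cells. MRPL39, another one, stood at 18.1, 17.2 and 18.3 CPM and at 22.6, 22.9 and 20.9 CPM. MRPL21, the counterpart of bacterial L21, stood at 31.4, 33.0 and 34.8 CPM and at 38.9, 40.4 and 41.6 CPM. In all 3 every induced library was above every control.

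Without MYCN-induced replicate 3, MRPL3, MRPL11 and MRPL13 also passed the test, and in these that library was the lowest of the induced ones. MRPL3, the counterpart of bacterial L3 near the peptidyl transferase centre, had 107, 105 and 107 CPM in the 3 controls and 126, 135 and 114 CPM in the 3 induced libraries. MRPL13, the counterpart of bacterial L13, had 39.4, 40.2 and 41.8 CPM in the 3 controls and 48.4, 52.1 and 42.5 CPM in the 3 induced libraries. The groups of both were apart with all libraries in, at adjusted p-values of 0.155 and 0.20 (edgeR).

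Some members of the large subunit were nearly level. MRPL51, the most abundant per length, stood at 121, 118 and 120 CPM in control and at 124, 123 and 120 CPM in induced cells, with a log2 fold change of 0.03 ± 0.057 (SE). MRPL33 stood at 62.0, 59.4 and 60.9 CPM and at 60.0, 60.0 and 63.1 CPM, with 0.01 (standard error 0.062), which turned below 0 under library size only and upper-quartile normalization. MRPL48 and MRPL46 had log2 fold changes of 0.11 each with overlapping groups. Below 0 lay MRPL42, mitochondria-specific, which had 182, 173 and 167 CPM in the 3 controls and 163, 173 and 127 CPM in the 3 induced libraries (log2 fold change -0.17, adjusted p = 0.473, edgeR). Its induced replicate 3 was far below the others. MRPL24 stood at 116, 112 and 104 CPM and at 101, 94.3 and 104 CPM (-0.15, adjusted p = 0.295, edgeR). MRPL34 (-0.11), MRPL35 (-0.07) and MRPL27 (-0.05) lay nearer to 0.

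MRPL23 (chromosome 11, 1947278 to 1984522), the counterpart of bacterial L23 at the end of the exit tunnel, had the highest fold change of all members and the least stable values. It stood at 2.67, 3.81 and 0.197 CPM in control and at 6.75, 0.172 and 3.96 CPM in induced cells. Control 3 and induced replicate 2 were near 0 while the other 4 libraries were not, and the log2 fold change of 0.69 had a standard error of 1.10. Without MYCN-induced replicate 1 it was -0.10. Among the 29086 genes tested it was the 1 gene with these 2 libraries over 5-fold below each of the other 4 and those 4 above 1 CPM. This pattern was looked for after the values of MRPL23 were seen.

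By place in the ribosome, members were listed from general knowledge of its structure. All 5 members of the decoding centre and mRNA path had log2 fold changes above 0, with a median of 0.21, or 0.11 without control replicate 1. All 5 of the L7/L12 stalk, which recruits translation factors, were above 0 with a median of 0.22, which became 0.0083 without control replicate 1, 0.14 without MYCN-induced replicate 2 and 0.14 without MYCN-induced replicate 3. Around the peptidyl transferase centre 3 of 4 were above 0 (median 0.20), at the exit tunnel 5 of 6 (0.16) and in the central protuberance 6 of 6 (0.11). The median at the peptidyl transferase centre was 0.11 without MYCN-induced replicate 2, that at the tunnel 0.093 without control replicate 1 and that of the protuberance 0.17 without MYCN-induced replicate 3. MRPS15 is in none of these lists, and 0 of their members passed the test. At an unadjusted p under 0.05 (edgeR), 2 of the decoding list and 1 each of the stalk and peptidyl transferase lists were higher. So were 2 each of the tunnel and protuberance lists, where 8.13% of all genes and 11.4% of the protein-coding ones were. DESeq2 called MRPS5 and MRPS9 of the decoding list and MRPL58 of the protuberance list. It called 3.11% of all genes higher and 4.68% of the protein-coding ones. Of the proteins with a bacterial counterpart, 13 of 16 in the small subunit (median 0.14) and 26 of 30 in the large subunit (0.18) were above 0. Of the mitochondria-specific ones, 8 of 10 (0.083) and 17 of 19 (0.11) were, the last median being 0.059 without control replicate 1, 0.20 without control replicate 3 and 0.17 without MYCN-induced replicate 1. The differences between these lists were not tested.

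The summed level adds the CPM of the members with each subunit's symbol. It is a share of the counts and no amount per cell. Proteins without an MRP symbol are left out, among them DAP3 and PTCD3 (means of 107 and 124 CPM in control). MRPS30, MRPS18A and MRPS36 are counted in the small subunit by their symbols. The large subunit members summed to 1823, 1894 and 1938 CPM in control and to 2003, 2077 and 1972 CPM in induced cells. Those of the small subunit summed to 1091, 1128 and 1143 CPM and to 1193, 1218 and 1225 CPM. The induced sums were above the control sums in both subunits, by ratios of the means of 1.07 and 1.08. In both subunits this order depended on the scaling. Scaled by library size only, induced replicate 3 of the large subunit came to 1837 CPM and lay below all controls (1867, 1912 and 1941 CPM), and as TPM it came to 1220, below 1310, 1302 and 1293. For the small subunit it came to 654 TPM, below controls at 698, 692 and 685 TPM, and by library size only to 1142 CPM, below control 3 (1145 CPM) and above controls 1 and 2 (1118 and 1139 CPM). Fewer cells with these transcripts and less RNA per cell cannot be told apart in such bulk samples.

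The balance of the subunits, taken by symbol, differed by more than the SD of the controls and by less than that of the induced libraries. The ratio of the summed CPM of the large to that of the small subunit was 1.68 ± 0.013 in control and 1.66 ± 0.050 in induced cells (SD, n = 3 each). The lowest ratio, 1.61, belonged to induced replicate 3, and the other 5 libraries lay between 1.67 and 1.71.

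The controls were not equal to each other. Control replicate 1 was the lowest of all 6 libraries for 42 of the 78 members (53.8%). It was lowest for 17.6% of all genes tested and 22.3% of the protein-coding ones. In the large subunit this held for 31 of 49 members. Without it the median log2 fold change of the large subunit was 0.075 in place of 0.16. Of all 78 members 0 then passed the test in edgeR, beside 0.162% of all genes, and 13 (16.7%) were higher at an unadjusted p under 0.05, beside 6.26% of all genes. Most members were tight in control, with a fold range between the controls under 1.2 for 55 members, and over 1.5 for 9. Beside MRPL23, MRPS34, MRPS12 and MRPL52 these were MRPL2, MRPL28, MRPL41, MRPL45 and MRPL53, which are named here after their values were seen. MRPL41, a mitochondria-specific protein, stood at 3.46, 6.88 and 9.49 CPM in the controls and at 5.95, 8.56 and 9.03 CPM in the induced libraries. MRPL28, the counterpart of bacterial L28, had 29.2, 47.3 and 61.6 CPM and then 40.6, 50.4 and 50.9 CPM. In both, control 1 was the lowest and control 3 the highest of all 6 libraries, and without control replicate 1 their log2 fold changes were -0.064 and -0.21. MRPL45, which contacts the inner membrane at the end of the exit tunnel, went another way, with 9.03, 13.7 and 9.69 CPM in the 3 controls and 8.43, 8.13 and 16.4 CPM in the 3 induced libraries. Its highest libraries were induced replicate 3 and control 2, and its log2 fold change was 0.02, or -0.38 without MYCN-induced replicate 3. MRPL52, a mitochondria-specific protein, had 12.6, 16.3 and 22.2 CPM in the 3 controls and 17.4, 29.3 and 22.8 CPM in the 3 induced libraries. Its log2 fold change of 0.44 was as large as that of MRPS15, with an SE of 0.24 and overlapping groups (adjusted p = 0.377, edgeR).

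Control replicate 1 deviated by base composition. The exons of the members had between 35.0% and 66.7% GC, with a median of 47.9%. Across the members, the deviation of control 1 from the mean of all libraries had a Spearman correlation with GC content of -0.52, that of control 3 one of 0.47 and that of induced replicate 3 one of 0.44. Over all genes these were -0.32, 0.29 and 0.19. The correlations are across genes of 1 library each, which are not independent. A correction for GC content was chosen after the data were seen. With it edgeR called 2 large (MRPL37 and MRPL39) and 2 small (MRPS15 and MRPS9) subunit members higher. It called 2.05% of all genes higher and 3.19% of the protein-coding ones. The median log2 fold changes were then 0.18 in the large and 0.14 in the small subunit.

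**Figure D5:**
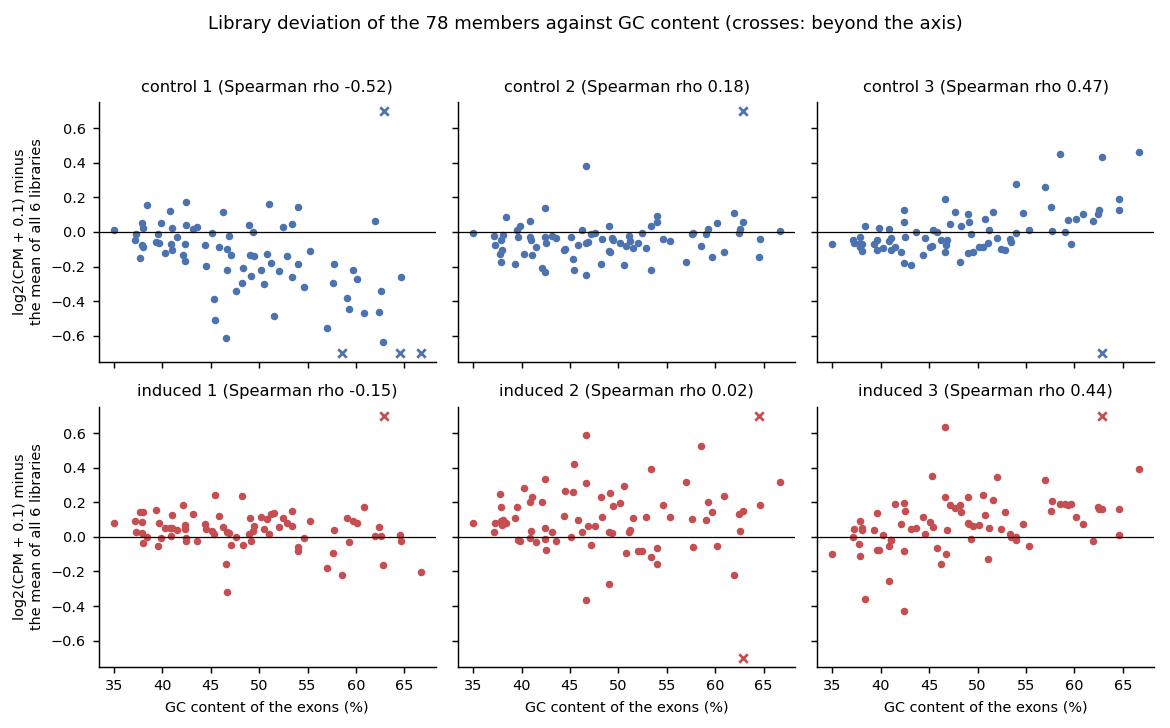
Each panel is a library and each point 1 of the 78 members, with the GC content of its exons in percent on the x axis and its log2(CPM + 0.1) minus the mean of the 6 libraries on the y axis. Crosses lie beyond the axis. GC-rich members fall in control 1 (Spearman rho -0.52) and lie higher in control 3 (0.47) and induced 3 (0.44).

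Genes that work with the mitochondrial ribosome were listed from general knowledge, and 0 of them passed the test in edgeR. DESeq2 called MTERF3, an assembly factor, and MTIF2, the initiation factor that places the first tRNA, higher. It did so for 3.11% of all genes and 4.68% of the protein-coding ones. Without MYCN-induced replicate 3 edgeR called 2 of 26 assembly factors and 4 of 17 translation factors (23.5%) higher. The shares were 3.68% of all genes and 5.91% of the protein-coding ones. The 5 mitoribosomal proteins without an MRP symbol had log2 fold changes above 0, and 0 of them an unadjusted p under 0.05, from 0.04 (DAP3, a small subunit protein also known from cell death) to 0.26 (AURKAIP1). Of 26 factors for assembly and rRNA modification 23 were above 0 (median 0.11), from -0.12 for ERAL1, a chaperone of the 12S rRNA, to 0.34 for MRM3, a methyltransferase of the 16S rRNA. At an unadjusted p under 0.05, 5 of the 26 were higher and 0 lower, beside 8.13% and 10.6% of all genes. Among protein-coding genes these shares were 11.4% and 10.6%. Of 17 translation factors 14 were above 0 (median 0.11) and 7 (41.2%) were higher and 0 lower at an unadjusted p under 0.05. Without control replicate 2 or 3 it was 1 of the 17, beside 4.74% and 6.64% of all genes. They ran from -0.10 for PDF, which removes the formyl group from nascent chains, to 0.24 for GUF1, a GTPase that binds mitochondrial ribosomes.

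The rRNAs themselves were depleted before sequencing, so their residual levels are no measure of ribosome content. MT-RNR1 had 13.5 ± 1.28 CPM in the 3 controls and 17.1 ± 6.37 CPM in the 3 induced libraries, and MT-RNR2 had 45.8 ± 0.94 and 58.5 ± 19.5 CPM (SD, n = 3 each), with adjusted p-values of 0.557 and 0.466 (edgeR). Both were above all controls in induced replicates 1 and 3 and below all controls in induced replicate 2. Without MYCN-induced replicate 2 edgeR called 1 of these 2 genes higher, where 0.581% of all genes were.

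Cytosolic ribosomal proteins and respiratory chain subunits gave a background for the size of these changes. Of 80 cytosolic ribosomal protein genes tested 66 were above 0, with a median log2 fold change of 0.10 (0.058 without control replicate 1 or without MYCN-induced replicate 3), and 0 passed the test in edgeR or DESeq2. At an unadjusted p under 0.05 (edgeR), 6 of them (7.50%) were higher and 3 lower. Of 82 nuclear respiratory chain genes tested 57 were above 0, with a median of 0.065 (0.020 without control replicate 1), and 1 passed, NDUFA6 of complex I, with 27.1, 30.1 and 32.7 CPM in the 3 controls and 40.5, 39.1 and 41.8 CPM in the 3 induced libraries. NDUFA6 did not pass with the replicate block, nor with 1 control or with MYCN-induced replicate 1 or 2 left out. Of these 82 genes 9.76% were higher at an unadjusted p under 0.05. Over the protein-coding genes tested this share was 11.4%, above that of both lists. All induced libraries were above all controls for 18 cytosolic (22.5%) and 13 respiratory chain genes (15.9%), for 7 assembly factors (26.9%) and 8 translation factors (47.1%), beside the 28 mitochondrial ribosomal protein genes (35.9%) and 11.5% of all genes. The differences between these groups were not tested.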

How the data were processed

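The data are 6 RNA-seq libraries of SK-N-AS cells, 3 of control and 3 of MYCN-induced cultures. The authors aligned reads with STAR (2.7.1a per the submitters' processing notes) to GRCh38 and deposited estimated counts of read pairs on the exons of each gene. The file header names featureCounts v1.6.4 on unique alignments, with pairs that overlap several genes shared in fractions and no strand option, while the processing notes name version 1.5.1 and the methods a strand option. Values were used as deposited. Groups were taken from the sample labels. Gene names came from GENCODE release 44, which matched 99.65% of the identifiers.

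Counts were rounded. The 29086 genes that reached 10 counts in 3 or more libraries entered the quasi-likelihood test of edgeR 4.0.16 (R 4.3.3) after TMM normalization, with Benjamini-Hochberg adjustment over all genes and a threshold of 0.05. The SE of a log2 fold change was derived from it and the F statistic. CPM use TMM library sizes. TPM use the exon lengths of the files. In simulated counts for this comparison over 29086 genes, edgeR called 194 of 200 well-counted genes changed 2-fold up or down, a larger change than that of any member, and 9 unchanged genes. The simulation gave every gene the same spread between replicates and no library effects, so these rates need not hold for the real libraries. No pair of replicates was as close as counting alone would make it (chi-square per gene 12.1 to 145.6). P-values measure the spread between these libraries.

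Alternatives were other normalizations, DESeq2 1.42.0, no count filter, protein-coding genes only, the replicate block, each library left out, a threshold of 0.1, MRPS30 and MRPS18A counted with the large subunit and members with shared exon bases left out. A GC correction (lowess, span 0.3) was added after the data were seen. Named members are those past the test, the 5 highest and lowest log2 fold changes and the 3 highest and lowest TPM of each subunit. The members and lists were chosen with earlier results of these data known, and the lists were written from general knowledge. The respiratory chain list leaves out assembly factors. Protein sequences were not used here.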

Additional observations from a re-analysis of the deposited data

How the results depend on the processing

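The counts of members called moved with the test, and no alternative called a member lower. For the large subunit, where edgeR called 0 members higher, DESeq2 gave 4, the GC correction 2 and a threshold of 0.1 gave 4, and leaving out 1 library gave 0 to 5 (5 without MYCN-induced replicate 3: MRPL3, MRPL11, MRPL13, MRPL37 and MRPL39). For the small subunit, with 1 member called higher, DESeq2 gave 4, the GC correction 2 and a threshold of 0.1 gave 3, and leaving out 1 library gave 0 to 2. MRPS15 did not pass with 1 control or MYCN-induced replicate 1 left out (adjusted p 0.072 to 0.116) and passed without MYCN-induced replicate 2 (0.047) or 3 (0.0095), and the cause was not tested. The median log2 fold change of the large subunit ran from 0.075 without control replicate 1 to 0.21 without control replicate 3. That of the small subunit ran from 0.093 to 0.14 over the libraries left out, and was 0.091 when scaled by library size alone, 0.097 under upper-quartile scaling and 0.076 for the members with no shared exon bases. The ratio of the summed small subunit level, 1.08, was 1.06 under each of these scalings.

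With the replicate block, 0 large and 2 small subunit members were called higher (MRPS15 and MRPS22), where 0.911% of all genes were. Deviations of same-numbered libraries had correlations of 0.22, -0.019 and 0.074 across all genes and of 0.79, -0.90 and -0.59 across the members, and no source states a pairing, so the libraries were not treated as paired. Over the 13 alternatives that refit all genes, the log2 fold change of 19 of the 78 members turned sign at least once, 16 times among the members named by the rule. MRPL33, near 0, was -0.029 by library size alone, -0.026 by upper quartile and -0.0082 with protein-coding genes only. The same scalings gave -0.0017 and -7.6e-05 for MRPL51 and -0.0033 and -0.0017 for MRPS28. Over the fits that each left out 1 library, log2 fold changes ran from -0.10 (without MYCN-induced replicate 1) to 1.32 for MRPL23, from -0.089 to 0.022 (MYCN-induced replicate 3) for MRPL27, from -0.013 (control replicate 2) to 0.025 for MRPL33, from -0.23 to 0.0057 (control replicate 3) for MRPL34, from -0.0085 (MYCN-induced replicate 3) to 0.11 for MRPS16, from -0.0053 (control replicate 1) to 0.080 for MRPS28 and from -0.10 to 0.013 (control replicate 1) for MRPS18B. MRPL33 was also -0.011 and MRPS18B 0.0037 without MYCN-induced replicate 3. The cause of these shifts was not tested. MRPL23, at 15.5 to 438.5 counts, had the least depth.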
